A study of Mus musculus with 3 samples.

Results

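The cap-binding complex eIF4F and the proteins that bind its cap-binding subunit were followed as 10 genes, taken by symbol from the 31053 genes counted in each library. They were the cap-binding proteins Eif4e, Eif4e2 and Eif4e3, the binding proteins Eif4ebp1 and Eif4ebp2, the scaffolds Eif4g1, Eif4g2 and Eif4g3, and the RNA helicases Eif4a1 and Eif4a2. The group was chosen on measured values, namely a fall of Eif4e in mutant spermatids, to ask whether partners and paralogs share that fall, so the values of Eif4e itself are a description. Testicular cells of C57BL/6 mice, 8 weeks old per the labels, were profiled by droplet single-cell RNA-seq in 3 libraries, 1 for each genotype. WT was wild type and GRTH-KO (KO) lacked GRTH/DDX25, a testis DEAD-box RNA helicase. GRTH-KI (KI) carried, as the study describes it, a human GRTH gene with a missense change of arginine to histidine that removes the phosphorylated form of the protein. The labels describe 1 mouse per library, whereas the methods of the study describe pooled testes and a wider age range. With 1 library per genotype there is no replicate check, no p-value is given, and each 95% interval covers counting error only.

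Translation of most capped mRNAs starts when eIF4E holds the cap, eIF4G bridges it to the ribosome and eIF4A unwinds the leader of the mRNA. The 4E-BPs, encoded by Eif4ebp1 and Eif4ebp2, compete with eIF4G for eIF4E, whereas the paralog encoded by Eif4e2 (4EHP) binds the cap without recruiting eIF4G. In spermatids, transcription ceases as the chromatin condenses and stored mRNAs, those of the protamines among them, are translated later.

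The libraries held 82973909 (WT), 91388296 (KO) and 73150373 (KI) unique molecular identifiers (UMIs, counted RNA molecules), and 5869, 4064 and 1572 cells were kept. Cells were grouped into 16 clusters, named "-like" after marker genes, with SP for spermatocytes, RS for round and ES for elongated spermatids. Ddx25, the gene targeted in KO, had 1041 UMIs in the RS-like cells of WT, 0 in KO and 873 in KI. Its level in KI was 93.3 CPM against 211 in WT in SP-like cells and 144 against 126 in RS-like cells. KO and KI cells were scarce at the latest stage, since cluster 5 (ES-like) held 1132 WT, 7 KO and 1 KI cells, and the libraries shared between 8 and 36 cell barcodes pairwise. Free RNA of spermatids was present in barcodes without a cell, where Prm1, which encodes a protamine, stood at 19542 CPM (UMIs scaled to a common total) in WT, 6039 in KO and 8221 for KI. Markers of round spermatids summed to 7721, 7831 and 7214 CPM in the RS-like cells (WT, KO, KI).

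On GRCm38, Eif4e lies at chr3:138526179-138559696, Eif4e2 at chr1:87213914-87240488, Eif4ebp1 at chr8:27260329-27276674, Eif4g1 at chr16:20668313-20692884, Eif4g3 at chr4:137993022-138208508 and Eif4a2 at chr16:23107444-23114136, all on the plus strand. Eif4e3 at chr6:99625135-99666771, Eif4ebp2 at chr10:61428491-61452661, Eif4g2 at chr7:111067750-111083030 and Eif4a1 at chr11:69666936-69672423 are on the minus strand.

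In WT, Eif4e was lowest in spermatocytes and highest in the latest spermatids. Its level in WT was 229 CPM in the early meiotic-like cluster 12, 183 in cluster 6 (unnamed, with early meiotic and SP markers at a tie), 164 in the SP-like cluster 11, 135 in the SP-like cluster 2 and 91.2 in the SP-like cluster 3. It stood at 200 CPM in the RS-like cluster 9 and 440 in the RS-like cluster 1, then at 939 in cluster 4, 1022 in cluster 8 and 1565 in cluster 5, all ES-like. In descending order of WT level, the intervals of clusters 12 and 9, of 9 and 6 and of 6 and 11 overlapped, while those of the other neighbours did not. The RS-like clusters differed in depth, as WT cells had a median of 1215 UMIs in cluster 1 and 12756.5 in cluster 9. Markers did not settle which of them is the later stage. In WT, Prm1 was higher in cluster 1 (7241 against 3700 CPM), and the ES marker Smcp was higher in cluster 9 (2164 against 949 CPM). KO and KI had 78.3 and 53.7 CPM of Eif4e in cluster 9, 179 and 138 in cluster 1, and 414 and 428 in cluster 4. Among clusters of at least 20 cells both mutants were highest in cluster 4, and WT in cluster 5.

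**Figure D1:**
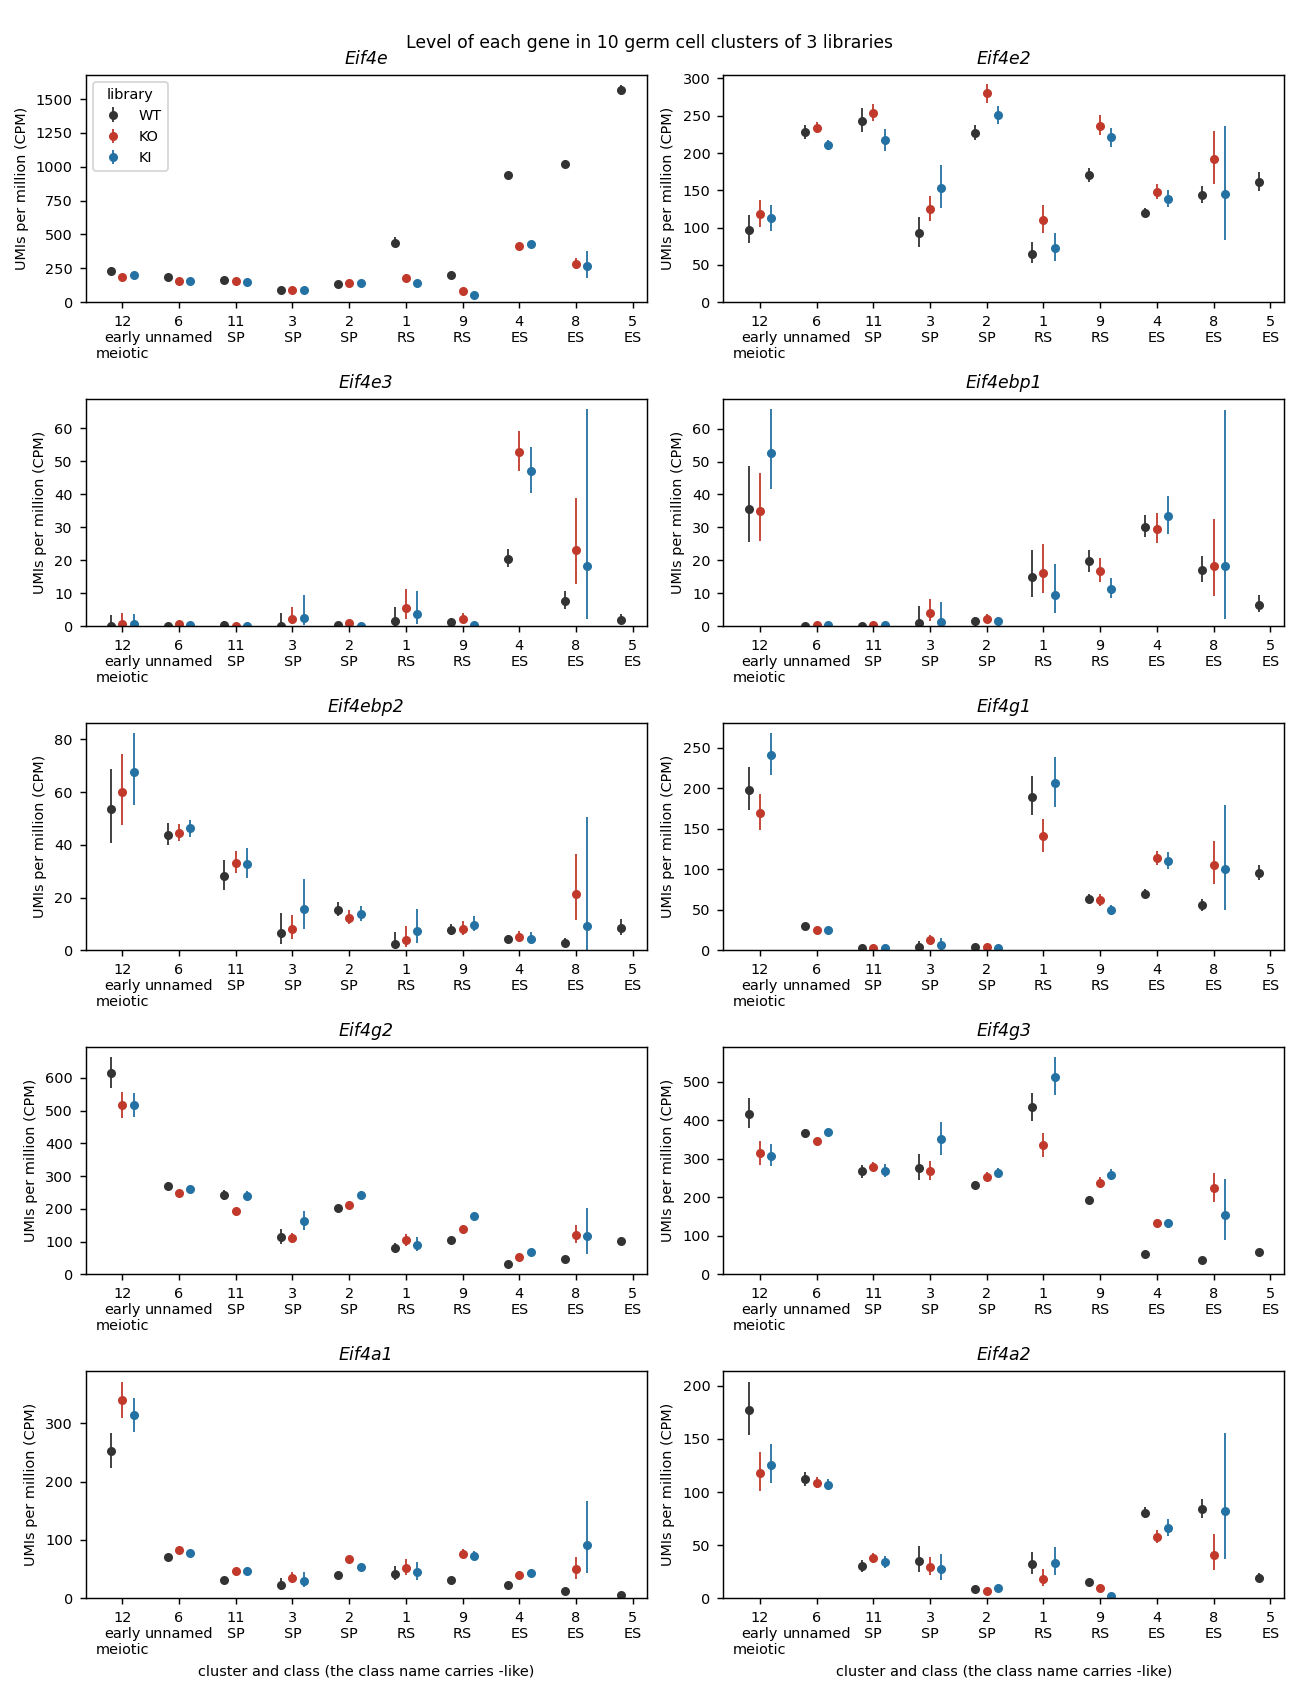
CPM (UMIs scaled to a common total, linear axis from 0) of each of the 10 genes in 10 germ cell clusters, ordered from early meiotic-like to ES-like, in WT (black), KO (red) and KI (blue), where points are 1 library each, bars are exact 95% Poisson intervals, and KO and KI are left out of cluster 5 for having under 20 cells. In the RS-like clusters 9 and 1 and the ES-like clusters 4 and 8 the interval of Eif4e in WT lies above those of both mutants, with 939 CPM (WT), 414 (KO) and 428 (KI) in cluster 4, as it does by less in cluster 6, while the intervals of the libraries overlap in the SP-like clusters 11, 3 and 2.

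The study measured Eif4e by quantitative PCR with the primer pair printed here to show which stretch of the gene that assay reads. Both primers are 5′ to 3′ and match the annotated transcript Eif4e-201, on the plus strand at chr3:138553708-138555458 of GRCm38, in the coding sequence.
forward primer: gtcacacacatagggagggta
reverse primer: gtgtctgcgtgggactgataac
The forward primer spanned exons 7 and 8 of 8 and the reverse primer lay in exon 8, giving a product of 83 bases. The reverse primer ended 4238 bases before the annotated end of Eif4e-201, a transcript of 4991 bases, whereas 3′ droplet counts read the end of a transcript. The annotated transcripts Eif4e-202 (856 bases) and Eif4e-205 (729 bases) matched both primers too. So did the processed pseudogene Gm7327, which was not among the genes counted here.

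In RS-like cells, Eif4e was lower in both mutants. Eif4e had 1956 UMIs (237 CPM) in 1083 WT cells, 632 UMIs (98.7 CPM) in 963 KO cells and 396 UMIs (65.3 CPM) in 383 KI cells. The log2 ratio to WT, with 1 CPM added to both levels, was -1.26 (-1.39 to -1.13) for KO and -1.84 for KI, where the level in WT was 2.39-fold (2.18 to 2.61) and 3.59-fold that of the mutants. Of the 8225 genes with a mean of at least 10 CPM, 1.71% had a lower ratio in KO and 1.33% in KI. KI was lower than KO, with a log2 ratio of KI to KO of -0.59 (-0.77 to -0.41). With each cell weighted the same, the ratios to WT lay closer together, at -1.32 (KO) and -1.49 (KI). In cluster 1 the intervals of KO (157 to 204 CPM) and KI (114 to 165 CPM) overlapped.

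Of the 10 genes, 8 passed the minimum of 10 CPM in RS-like cells, and Eif4e3 and Eif4ebp2 did not. In KO, 1 of the 8 was past 1.5-fold lower (Eif4e), against 9.87% of all genes, and 1 was past 1.5-fold higher (Eif4a1), against 20.1%. In KI, 3 were past 1.5-fold lower (Eif4e, Eif4ebp1 and Eif4a2), against 12.8% of all genes, and 2 were past 1.5-fold higher (Eif4a1 and Eif4g2), against 23%. The group was chosen on the fall of Eif4e, so its call is a description. Without Eif4e, 0 of the other 7 were past 1.5-fold lower in KO and 2 in KI, against 9.87% and 12.8% of all genes. The median log2 ratio of these 7 was 0.16 in KO and 0.35 in KI, where the median of all genes was 0.17 in both. Counts past 1.5-fold are read against 0, with a shift of all genes of 0.17 that scaling by the trimmed mean of M values (TMM) brought to -0.066 in KO. Under TMM the KO ratios of Eif4ebp1 (-0.41), Eif4g1 (-0.33), Eif4g3 (-0.074) and Eif4a2 (-0.79) were below 0 and those of Eif4e2, Eif4g2 and Eif4a1 above it.

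**Figure D2:**
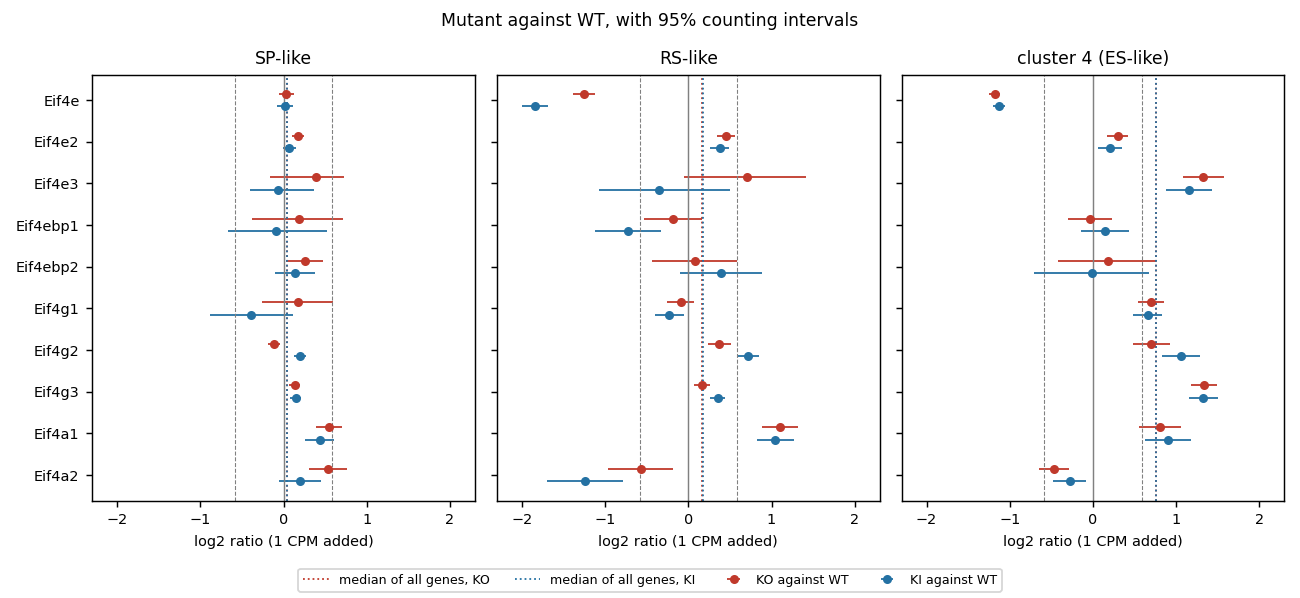
Log2 ratio of each mutant to WT for the 10 genes in SP-like cells, RS-like cells and cluster 4 (ES-like), with KO in red, KI in blue, 95% counting intervals as bars, 1.5-fold as dashed lines and the median of all genes as dotted lines. In RS-like cells Eif4e lies at -1.26 and -1.84 and Eif4a1 at 1.11 and 1.05, whereas in SP-like cells no gene that passed the minimum lies past 1.5-fold.

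The size of the Eif4e difference moved with the cells taken as round spermatids. RS-like cells of WT held more late RNA than those of the mutants. The summed level of the 13 ES markers, all detected in each library, was 17438 CPM (WT), 6961 (KO) and 5055 (KI). In SP-like cells the same markers summed to 4142 CPM (WT), 1161 (KO) and 705 (KI), so WT was higher there too. The part of free RNA in either gap was not tested. With WT represented by the nearest WT cell of each mutant cell, which drew on 384 WT cells for KO and 208 for KI, the log2 ratio of Eif4e was -0.57 in KO and -0.88 in KI. With classes set by the marker score of each single cell it was -0.25 and -0.56. That class took 196 KO and 63 KI cells from cluster 4, where Eif4e is high, against 50 WT cells, and 9.93% of its 2861 cells lay within 0.1 of the next best score. Clustering without integration gave -2.17 and -3.04, with 173 WT cells of cluster 4 in the RS-like class against 6 of KO and 6 of KI. Within single clusters the ratios were -1.34 and -1.88 in cluster 9 and -1.29 and -1.67 in cluster 1. Over the 17 alternatives the ratio ran from -2.17 to -0.25 in KO and from -3.04 to -0.56 in KI. Some of these, such as the filter on low values and the CPM added, could not change its sign.

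**Figure D3:**
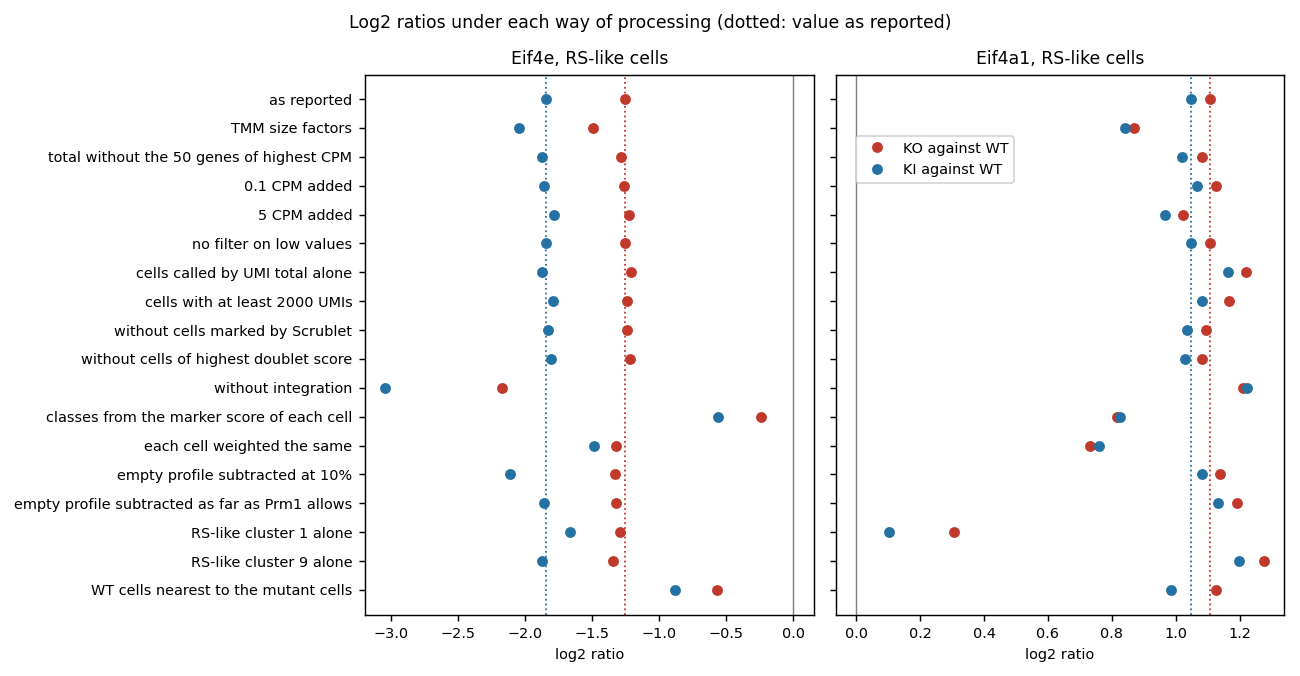
Log2 ratio to WT of Eif4e (left) and Eif4a1 (right) in RS-like cells as reported (top, dotted lines) and under each of 17 other ways of processing, 1 point per mutant (KO red, KI blue). Eif4e stays below 0, between -2.17 and -0.25 in KO and between -3.04 and -0.56 in KI, while Eif4a1 stays above 0.

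Eif4e stood at 301 CPM in barcodes without a cell in WT, 170 in KO and 182 in KI, above its level in the RS-like cells of each library. After the profile of empty barcodes was subtracted at 10% of UMIs, Eif4e in RS-like cells had ratios of -1.33 (KO) and -2.12 (KI). Subtraction as far as Prm1 allows took 21.7% (WT), 14.2% (KO) and 4.52% (KI) of UMIs, so the 10% setting took more from KI than that limit. With the limit by Prm1 the ratios of Eif4e were -1.32 (KO) and -1.86 (KI). Somatic clusters held Eif4e too, at 270 CPM (WT), 177 (KO) and 188 (KI) in Sertoli-like cells, close to its levels in barcodes without a cell. Prm1 in the Sertoli-like cells stood at 14775, 4097 and 8922 CPM (WT, KO, KI). Smaller clusters rested on few UMIs, with 47 (WT), 22 (KO) and 27 (KI) for Leydig-like cells and 5, 3 and 13 for macrophage-like cells. In the Leydig-like cells Prm1 stood at 21173 CPM (WT), 242 (KO) and 86.7 (KI), and Eif4e at 360, 106 and 65.0 CPM. For both genes WT was highest in the Sertoli-like and in the Leydig-like cells, while the Eif4e intervals of KO and KI overlapped in each. The part of spermatid RNA in these Eif4e levels was not tested.

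Eif4e2, the paralog of Eif4e that does not recruit eIF4G, was not lower in the RS-like cells of the mutants. It had 154 CPM in the RS-like cells of WT, 211 in KO and 200.5 in KI, giving log2 ratios of 0.45 (0.34 to 0.56) and 0.38 (0.26 to 0.49). Both mutants were above WT and neither was past 1.5-fold. Under TMM scaling the ratios were 0.21 and 0.17. In WT, Eif4e2 went from 97.3 CPM in the early meiotic-like cluster to 243 in the SP-like cluster 11 and 120 in cluster 4.

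A share of the UMIs of a family does not depend on the scaling of the totals. Eif4e took 60.4% (58.7 to 62.1) of the 3239 UMIs of Eif4e, Eif4e2 and Eif4e3 in the RS-like cells of WT. Its share was 31.6% (29.5 to 33.6) for KO and 24.5% (22.4 to 26.7) for KI. The intervals of the 3 libraries do not overlap. In SP-like cells the share of Eif4e was 38.8% (WT), 36.5% (KO) and 37.9% (KI), and in cluster 4 it was 87.0%, 67.4% and 69.8%. These shares compare libraries, not the amounts of the proteins, and levels of different genes are not compared because 3′ counting is not corrected per gene.

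Eif4e3, which encodes the most divergent of the cap-binding paralogs, had at most 11 UMIs per library in any germ cell cluster other than clusters 4 and 8. It had 11 UMIs in the RS-like cells of WT, 18 in KO and 5 in KI, too few to give a direction. In cluster 4 it had 20.5, 52.7 and 46.9 CPM (WT, KO, KI) on 224, 297 and 188 UMIs. Both mutants were above WT, also under TMM scaling (0.46 and 0.32), where neither was past 1.5-fold. Exons of Eif4e3 overlap those of Gm20696 on the same strand, so its reads may be split between both. Its share of the family in cluster 4 was 1.9% (WT), 8.6% (KO) and 7.6% (KI).

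Of the binding proteins that compete with eIF4G, Eif4ebp1 was past 1.5-fold lower in KI. It had 18.9 CPM in the RS-like cells of WT, 16.6 in KO and 11.05 in KI, on 156, 106 and 67 UMIs. The log2 ratio was -0.18 (-0.53 to 0.16) in KO and -0.72 (-1.12 to -0.33) in KI. With classes by the score of each cell, the KI ratio was 0.12. Eif4ebp2 stood at 6.91 CPM (WT), 7.34 (KO) and 9.40 (KI), and both intervals of its ratio included 0. The share of Eif4ebp1 in the UMIs of the pair differed between stages, as it took 5.9% in SP-like cells of WT, 73.2% in RS-like cells and 87.6% in cluster 4. The same shares were 6.1%, 69.3% and 85.6% in KO and 4.8%, 54.0% and 88.7% in KI. In cluster 5 of WT the share was 43.5% (27 of 62 UMIs).

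**Figure D4:**
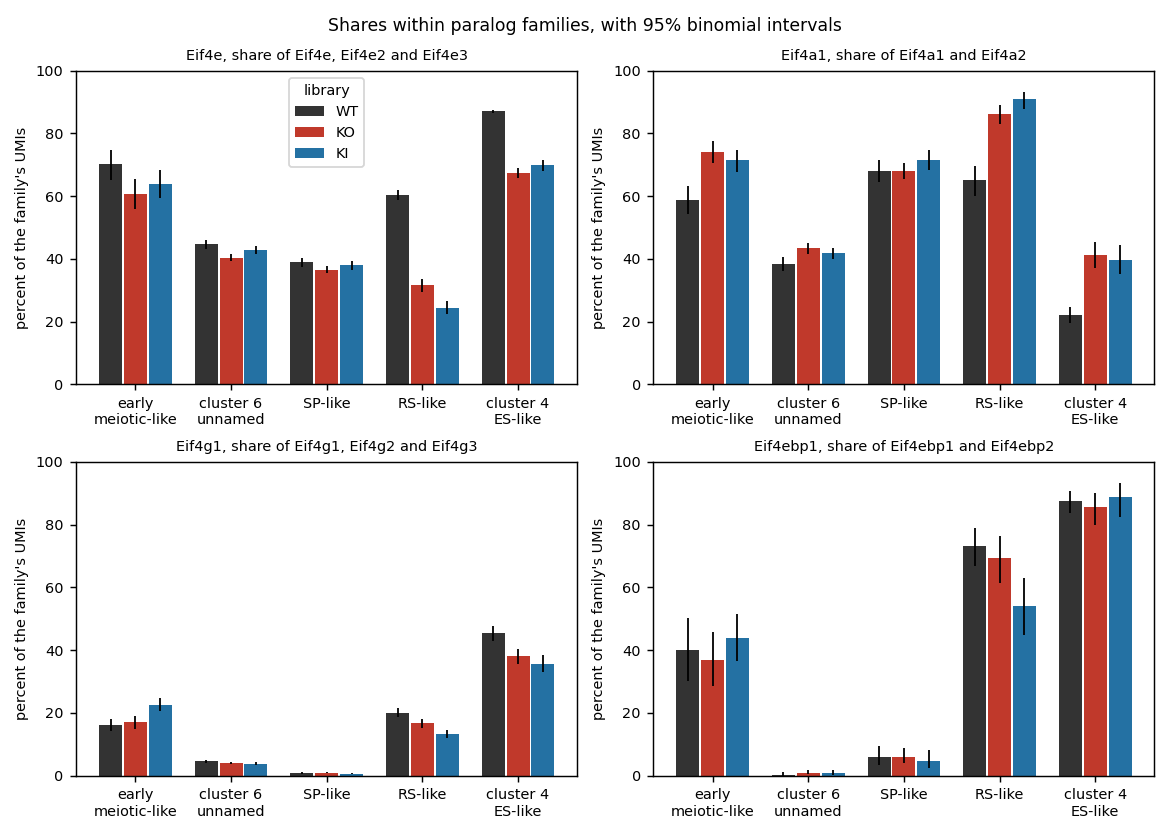
Share (percent, axis from 0 to 100) of a family's UMIs taken by Eif4e, Eif4a1, Eif4g1 and Eif4ebp1 in 5 groups of germ cells, in WT (black), KO (red) and KI (blue), with exact 95% binomial intervals. The share of Eif4e in RS-like cells is 60.4% (WT), 31.6% (KO) and 24.5% (KI), and that of Eif4a1 is 65.0%, 86.1% and 90.9%.

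No scaffold was past 1.5-fold lower in RS-like cells. Eif4g1, the main bridge of eIF4F to the ribosome, had 83.0 CPM in the RS-like cells of WT, 77.8 in KO and 70.7 in KI, with log2 ratios of -0.09 (-0.26 to 0.07) and -0.23 (-0.40 to -0.05). Against the nearest WT cells its ratios were 0.24 and 0.10, so its direction turned. In WT it fell from 198 CPM in the early meiotic-like cluster to 2.5 in the SP-like cluster 11. Among the RS-like clusters of WT it stood at 190 CPM in the shallow cluster 1 and 63.5 in the deeper cluster 9. In clusters 11, 1 and 9 the mutants had the same order, at 2.5, 141 and 61.8 CPM in KO and 2.2, 206 and 49.1 CPM in KI. Eif4g2, which encodes a scaffold without the eIF4E site (DAP5), had 102 CPM in the RS-like cells of WT, 132 in KO and 167 in KI. Its log2 ratios were 0.37 (0.23 to 0.51) and 0.71 (0.58 to 0.85). Over the 17 alternatives the KO ratio ran from -0.037 to 0.71, with 1 below 0 and 1 past 1.5-fold higher. KI exceeded KO by 0.34 (0.21 to 0.48), so the order of the libraries in RS-like cells was the reverse of that for Eif4e. This gap of Eif4g2 was not particular to RS-like cells, at 0.31 (0.24 to 0.39) in SP-like cells and 0.35 (0.11 to 0.59) in cluster 4. In cluster 1 alone the Eif4g2 ratio of KI was 0.17. Eif4g3, a further eIF4G with the eIF4E site, had 230 CPM (WT), 258 (KO) and 293 (KI), with log2 ratios of 0.16 (0.069 to 0.26) and 0.35 (0.26 to 0.44), of which that of KO turned to -0.074 under TMM scaling and to -0.37 in cluster 1 alone. In cluster 1 Eif4g3 had 433 CPM in WT and 335 in KO, and 4 of the 17 alternatives gave a KO ratio below 0.

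Of the helicases, Eif4a1 was higher in the RS-like cells of both mutants, though with overlapping intervals in cluster 1. Eif4a2 was lower, with a direction that depended on the cells compared. Eif4a1, the usual helicase of eIF4F, had 32.8, 71.8 and 68.9 CPM (WT, KO, KI) on 271, 460 and 418 UMIs. Both mutants were above WT, by log2 ratios of 1.11 (0.89 to 1.32) and 1.05 (0.83 to 1.27), and did not differ from each other beyond counting error (KI to KO -0.059, -0.25 to 0.13). Against the nearest WT cells the ratios of Eif4a1 were 1.12 and 0.99. Its smallest ratios over the 17 alternatives were those of cluster 1 alone, at 0.31 in KO and 0.10 in KI. Eif4a1 in barcodes without a cell was higher in the mutants as well, at 39.7 CPM (WT), 71.6 (KO) and 67.4 (KI). With the empty profile subtracted as far as Prm1 allows, the ratios of Eif4a1 in RS-like cells were 1.19 and 1.13. At 10% of UMIs they were 1.14 and 1.08.

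Eif4a2, the paralogous helicase, had 17.7 CPM in the RS-like cells of WT, 11.6 in KO and 6.93 in KI, on 146, 74 and 42 UMIs. Its log2 ratio was -0.57 (-0.97 to -0.19) in KO, just short of 1.5-fold, and -1.24 (-1.70 to -0.78) in KI. Over the 17 alternatives Eif4a2 was past 1.5-fold lower in 8 for KO and 13 for KI, with -0.79 and -1.42 under TMM scaling, so that it then joined Eif4e in both mutants. Against the nearest WT cells these were 0.098 and -0.44, and with classes by the score of each cell 0.60 and 0.26. In cluster 1 Eif4a2 had 32.1 CPM in WT and 33.6 in KI, and in cluster 9 it had 15.1 and 2.7. Exons of Eif4a2 overlap those of Rfc4 on the opposite strand. The share of Eif4a1 in the UMIs of both helicases in RS-like cells was 65.0% (60.2 to 69.6) for WT, 86.1% (82.9 to 89.0) for KO and 90.9% (87.9 to 93.3) for KI. In cluster 1 it was 56.8% (46.3 to 67.0), 73.9% (63.7 to 82.5) and 57.6% (44.8 to 69.7), so KI was near WT there. In cluster 9 it was 67.4%, 88.7% and 96.4%, and in cluster 4 it was 22.1%, 41.3% and 39.7%.

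In SP-like cells Eif4e had 140 CPM (WT), 143 (KO) and 141 (KI), with log2 ratios of 0.03 (-0.06 to 0.12) and 0.01 (-0.08 to 0.11). Of the 7 genes that passed the minimum in SP-like cells, 0 were past 1.5-fold in either direction in KO, against 6.5% of all genes lower and 5.45% higher. In KI the count was 0 as well, against 5.8% lower and 3.09% higher. Eif4a1 was nearest to the threshold, with 36.5 CPM (WT), 53.9 (KO) and 49.6 (KI) and log2 ratios of 0.55 (0.39 to 0.71) and 0.43 (0.26 to 0.60). Eif4a2 had 17.1, 25.2 and 19.7 CPM (WT, KO, KI) in SP-like cells, with log2 ratios of 0.53 (0.31 to 0.76) and 0.19 (-0.060 to 0.45), so KO was above WT there and below it in RS-like cells. Over 14 alternatives in SP-like cells, the KO ratio was past 1.5-fold higher in 3 for Eif4a2, up to 0.69, and in 1 for Eif4a1, at 0.64. Eif4a1 stood above WT in the early meiotic-like cluster too, at 252.5 CPM (WT), 339 (KO) and 314 (KI). In the early meiotic-like cluster, the log2 ratios of Eif4e were -0.32 (-0.58 to -0.065) in KO and -0.20 (-0.45 to 0.045) in KI. In cluster 6 they were -0.21 (-0.29 to -0.12) and -0.22 (-0.31 to -0.14), so Eif4e was lower by a small margin in both mutants in cluster 6. Eif4a2 in the early meiotic-like cluster had 178, 118 and 126 CPM (WT, KO, KI), with log2 ratios of -0.58 (-0.89 to -0.28) and -0.49 (-0.79 to -0.20).

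Cluster 4, which was ES-like with RS markers second, held 760 (WT), 299 (KO) and 127 (KI) cells, more mutant cells than any other ES-like cluster. Its ES markers summed to 248089 CPM in WT against 83623 and 81906 in the mutants, and its RS markers to 4865, 8021 and 7718. Clustered without integration, late cells separated by library, as a cluster tied between RS and ES markers held 1 WT, 401 KO and 143 KI cells, while the ES-like clusters held 1233 and 1051 WT cells and at most 4 of a mutant. Comparisons in cluster 4 thus rest on the integration, and a change of stage and a change within a stage cannot be told apart there. Its libraries differed in make-up, since the 50 genes of highest CPM took 36.6% (WT), 18.7% (KO) and 18.2% (KI) of the UMIs, and the median log2 ratio of all genes was 0.75 in KO and 0.76 in KI. Eif4e had 939, 414 and 428 CPM (WT, KO, KI) on 10277, 2330 and 1715 UMIs. Its log2 ratios were -1.18 (-1.24 to -1.11) and -1.13 (-1.21 to -1.06), and 2.37% of the 6723 genes tested had a lower ratio in each mutant. With TMM scaling the KO ratio was -2.07, and against the nearest WT cells the ratios were -1.19 and -1.18. KI to KO was 0.049 (-0.042 to 0.14) in cluster 4, whereas KI was below KO in RS-like cells.

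In cluster 4, 9 of the 10 genes passed the minimum. Eif4e, on which the group was chosen, was past 1.5-fold lower in each mutant. Of the other 8, 0 were, against 7.1% of all genes in KO and 6.54% in KI. Eif4e3, Eif4g1, Eif4g2, Eif4g3 and Eif4a1 were past 1.5-fold higher in both, 5 of 9 where 57.6% of all genes were past it in KO and 57.5% in KI. The share of members higher was thus near that of all genes. Under TMM scaling Eif4g1 turned to -0.18 and -0.20, Eif4g2 to -0.17 in KO and Eif4a1 to -0.056 in KO. Eif4e3, at 0.46 and 0.32, and Eif4g3, at 0.46 and 0.47, stayed above 0 but were no longer past 1.5-fold. Under the same scaling Eif4e2 was at -0.59 in KO and -0.66 in KI, Eif4ebp1 at -0.89 and -0.69 and Eif4a2 at -1.34 and -1.13, so whether Eif4e stood alone as lower in cluster 4 depended on the scaling. Eif4g3 had 52.1 CPM (WT), 133 (KO) and 132 (KI). In the ES-like cluster 8 Eif4e had 1022 CPM (WT), 282 (KO) and 263 (KI), but the mutant cells there were shallow, with median UMI counts of 1319.5 and 939 against 7287 in WT, and unlike those of WT in their markers. Prm1 stood at 165276 CPM in WT against 8378 and 18460 there, and Sycp3, of the meiotic chromosome axis, at 14.4 against 211 and 191, so these Eif4e values are not a comparison within elongated spermatids.

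Of 27 further partners and regulators of eIF4F, 14 passed the minimum in RS-like cells. In KO 0 were past 1.5-fold lower and 3 higher, and in KI 1 was lower and 5 higher, where all genes gave 9.87% lower and 20.1% higher in KO and 12.8% and 23% in KI. The medians were 0.10 and 0.26, against 0.17 for all genes. Eif4a3, a helicase of the exon junction complex, was higher in both mutants at 21.7 CPM (WT), 48.7 (KO) and 40.7 (KI). Pabpc6, of the poly(A)-binding protein family, was higher at 24.6, 72.3 and 49.6 CPM.

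Of 39 other initiation factors, 29 passed, with 1 lower and 4 higher in each mutant, both below the shares of all genes given above, and medians of 0.21 and 0.30. The genes named here are therefore given for their values only. Higher in both mutants were Eif1b, a paralog of the start codon factor Eif1, with 75.9 CPM (WT), 193 (KO) and 184 (KI), Eif1ad, and Eif2b2, a subunit of the exchange factor eIF2B. Eif3j1, a subunit associated with eIF3, was lower in both, with 96.2 CPM (WT), 55.8 (KO) and 47.7 (KI).

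The 5 genes whose level was most like that of Eif4e over the 10 germ cell clusters with at least 20 cells in every library, which leave out cluster 5 and take in the small SP-like cluster 14, were Knstrn, Ndufa13, Asb8, Eif4h and Tmem64, by the mean over libraries of Pearson's r of log2 CPM, among 9896 genes. Their mean r ran from 0.91 for Knstrn to 0.87 for Tmem64, as a description over clusters that share their libraries. Eif4h, which stimulates the eIF4A helicase, had 674 CPM in cluster 4 of WT, 302 in KO and 303 in KI, with log2 ratios of -1.16 and -1.15 there. In the RS-like cells Eif4h had 86.3, 71.2 and 54.4 CPM, so its order of libraries was that of Eif4e with smaller steps. Knstrn, a kinetochore and spindle gene, had 38.3 CPM in the RS-like cells of WT, 17.2 in KO and 7.42 in KI. The other members were ranked where their mean was at least 10 CPM in RS-like or SP-like cells, which leaves out Eif4e3. Of these, Eif4a2 had the highest mean r with Eif4e at 0.54 and Eif4g3 the lowest at -0.61.

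The RefSeq promoter windows of GRCm38.p6, read here over the 250 bases before each start, held 7 of the 10 genes. The E-box CACGTG, a palindrome that reads alike on both strands and is bound by MYC and USF factors, was found in the windows of Eif4e, Eif4a1 and Eif4g1, 3 of 7 genes, where 6.86% of the 27025 genes with an entry and 6.02% of the 32851 windows held it. The stretches are printed with the motif in capitals, and any part of the motif in the levels of these genes was not tested.
Eif4e, chr3:138527028-138527057, plus strand: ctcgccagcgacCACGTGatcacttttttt
Eif4e, chr3:138527192-138527221, plus strand: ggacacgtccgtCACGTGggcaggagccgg
Eif4a1, chr11:69672595-69672624, minus strand: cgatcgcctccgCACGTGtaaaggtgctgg
Eif4g1, chr16:20672661-20672690, plus strand: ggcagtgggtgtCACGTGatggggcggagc
The motifs began 228 and 64 bases before the second start of Eif4e, 189 before that of Eif4a1 and 54 before a start of Eif4g1 that lies inside the annotated gene. Both Eif4e stretches lay in an exon of the annotated transcript Eif4e-204, and the window of the first Eif4e start held none. The full cAMP response element TGACGTCA was in 0 of the 7 genes' windows and in those of 1.77% of all genes.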

How the data were processed

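Raw UMI counts of every barcode, as the authors deposited them, were used without normalization. Per the file headers and the submitters' processing notes, reads were aligned to mm10 and counted with Cell Ranger (header version 4, notes 2.1.1). Cells were called from 3000 expected cells and by comparison with empty barcodes, and those above 500 genes and below 10% mitochondrial UMIs were kept. Libraries were integrated with SCTransform (Seurat 5.3.0, sctransform 0.4.2, R 4.3.3) and clustered with leidenalg 0.10.2 at resolution 0.3 (scanpy 1.11.5, scipy 1.17.1, numpy 2.4.6, pandas 2.3.3, Python 3.11.15), leaving the members and both lists out of the clustering genes. Clusters were named by the highest mean marker score with a lead of 0.1 and at least 3 markers, and other shares than the study's may come from these rebuilt names. Doublets were kept. The shares marked by Scrublet were 2.32% (WT), 0.123% (KO) and 0.127% (KI), too low in the mutants for the caller to have worked.

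UMIs were summed per class and library, given as CPM with exact Poisson intervals, and compared as log2 ratios with 1 CPM added and exact binomial intervals (95%). Genes with a mean of at least 10 CPM entered counts past 1.5-fold. The calculation of the ratios was checked on simulated counts with Poisson error only. That check does not cover differences between cells, mice or ways of setting the classes. The text names all 10 members, list genes past 1.5-fold the same way in both mutants in RS-like cells (at most 10 per list) and the 5 genes most like Eif4e, and Ddx25 and markers as checks. The members and lists were chosen with earlier results of these data known. Gene models and copies came from GENCODE M21 (GRCm38). No other annotated transcript matched the last 500 bases of a member's longest transcript at 95% identity over 100 bases. The alternatives with WT cells nearest to the mutant cells and with the empty profile limited by Prm1, and the comparison in cluster 4, were chosen after seeing the data.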

Additional observations from a re-analysis of the deposited data

Results flagged for a closer look

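Eif4e3 and Eif4a1 were more than 1.5-fold higher in the barcodes without a cell of both mutants than in those of WT. The share of all genes past that fold there was not computed, so these genes are listed for their values only. Spermatid RNA was more abundant there in WT, with Prm1 at 19542 CPM against 6039 in KO and 8221 in KI. In barcodes without a cell Eif4e3 stood at 8.17 CPM in KO and 11.6 in KI, against 4.49 in WT, on 73, 89 and 37 UMIs. Eif4a1 stood at 71.6 CPM in KO and 67.4 in KI, against 39.7 in WT. Eif4e2, Eif4ebp2, Eif4g2 and Eif4g3 were above WT in both mutants too, by less than 1.5-fold in each.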

How the results depend on the processing

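The size of the Eif4e difference in RS-like cells moved with some of the 17 alternatives, while its sign could not change under the filter on low values and the CPM added. Its log2 ratio in KO was -1.49 with TMM size factors, -2.17 without integration, -0.25 with classes from the marker score of each cell and -0.57 against the nearest WT cells. In KI these were -2.05, -3.04, -0.56 and -0.88, and the ratio was -1.49 with each cell weighted the same, -2.12 with the empty profile subtracted at 10% and -1.67 in cluster 1 alone. The number of members past 1.5-fold lower in KO was 2 with TMM, with the 50 top genes left out, with 0.1 CPM added, without cells of the highest doublet score, without integration, with each cell weighted the same and in cluster 1, and 0 with the cell score and against the nearest WT cells. In KI the number was 3 as reported (12.8% of all genes) and with TMM (19.2%), and 2 with 5 CPM added (11.2%). It was 0 with the cell score and 1 against the nearest WT cells. It was 2 with cells called by UMI total alone, with each cell weighted the same, with either subtraction of the empty profile and in cluster 1 or 9 alone. All KI counts after that with 5 CPM added are given without the share of all genes, so they are not read as a result about the members. Other directions turned. In RS-like cells Eif4e3 was -1.04 in KO without integration and Eif4ebp1 was 0.12 in KI with the cell score. Eif4a2 in KI was 0.26 with the cell score, 0.11 with each cell weighted the same and 0.060 in cluster 1. In cluster 4, TMM gave Eif4g1 -0.18 in KO and -0.20 in KI, Eif4g2 -0.17 in KO and Eif4a1 -0.056 in KO. The cause was not tested. No paired analysis was possible because each genotype had 1 library. Cluster 4 was defined on the integrated cells, so it was not compared without integration or with the cell score. Genotype, mouse, batch and library cannot be told apart, and depth limits Eif4e3, Eif4ebp1, Eif4ebp2 and Eif4a2 in RS-like cells, where a library held as few as 5 (Eif4e3), 67 (Eif4ebp1), 47 (Eif4ebp2) and 42 (Eif4a2) UMIs.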
